A study of Mus musculus with 2 samples.

Results

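Star, Cyp11a1, Hsd3b1, Hsd3b6 and Cyp21a1 are the core genes through which a mouse adrenal cortex cell turns cholesterol into the precursor shared by aldosterone and corticosterone, and they were followed here across single cortical cells. They were taken by gene symbol, and each of the 5 matched 1 of the 31057 features counted in both libraries. Cells had been sorted from 26 pooled adrenals of male mice aged 15 weeks, with the genotype written as WT, SF1-Cre ; Rosa mTmG. SF1-Cre acts in steroid-producing lineages, and the mTmG reporter switches from membrane tdTomato to membrane GFP after Cre recombination. The sort took single cells positive for a DNA dye and negative for DAPI, and no gate on GFP is named. A droplet kit that counts the 3′ ends of transcripts gave 2 libraries of this 1 group, and the sources used here do not say how the animals were divided between them.

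StAR carries cholesterol to the inner mitochondrial membrane, where Cyp11a1 cuts its side chain to give pregnenolone. A 3β-hydroxysteroid dehydrogenase, in the mouse adrenal Hsd3b1 or Hsd3b6, turns pregnenolone into progesterone, and Cyp21a1 hydroxylates progesterone to deoxycorticosterone. The last steps differ between zones: Cyp11b2 makes aldosterone in the outer zona glomerulosa, and Cyp11b1 makes corticosterone in the zona fasciculata. Mitochondrial P450 enzymes receive their electrons from NADPH through ferredoxin reductase (Fdxr) and ferredoxin (Fdx1).

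Cells with at least 5000 UMIs (unique molecular identifiers, 1 per captured transcript) were grouped by their depth-scaled counts (CPM) of Cyp11b2 and Cyp11b1, so that no member took part in the grouping. Cyp11b2-high cells had at least 200 CPM of Cyp11b2 and under 500 of Cyp11b1, and numbered 482 in library 1 and 237 in library 2. Cells low in both enzymes, under 200 CPM each, were the largest group with 2796 and 887 cells. Cyp11b1-intermediate cells, at 200 to under 1000 CPM of Cyp11b1, numbered 614 and 185. Cyp11b1-high cells, at 1000 CPM or more, numbered 456 and 287. Co-expressing cells, with at least 200 CPM of Cyp11b2 and 500 of Cyp11b1, numbered 22 and 10, and were described but not tested.

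The deposited depth was 92905273 UMIs over 5040 barcodes for library 1. For library 2 it was 28023733 over 2288, and 4 barcodes occurred in both. The 4370 and 1606 grouped cells had medians of 18626.5 and 16178.5 UMIs. Summed cortex markers (Nr5a1, Nr0b1, Scarb1, Fdx1, Fdxr and Mc2r) lay between 3975 and 11537 CPM in every group and library, while summed leukocyte markers reached at most 5.05 CPM, endothelial markers 34.7, stromal markers 0.688 and chromaffin markers 0.664. Cells reaching a cut-off on the leukocyte, endothelial, stromal or chromaffin list had been left out, so these low sums follow in part from that filter. Neither Cyp11b2 nor Cyp11b1 was in the summed zone lists. The glomerulosa list (Dab2, Vsnl1, Agtr1a, Agtr1b, Wnt4 and Shh) stood at 5754 and 6657 CPM in Cyp11b2-high and 2790 and 2545 in Cyp11b1-high cells. It was at 5158 and 5845 CPM in cells low in both and 4539 and 4810 in intermediate cells. The fasciculata list (Abcb1b, Mrap, Akr1b7 and Aldh1a1) stood at 1813 and 1734 CPM in Cyp11b2-high against 2109 and 3273 in Cyp11b1-high cells. Cells low in both had 1146 and 875 CPM of it, and intermediate cells 1162 and 939. In 79 and 66 leukocytes of the same libraries, which should lack the members, these stood at 19.3 to 61.0 CPM apart from Hsd3b6, which had 3 UMIs in library 1 and 0 in library 2. Several other quantities differed between Cyp11b1-high and Cyp11b2-high cells: the Cyp11b1-high cells had more Malat1 (30267 and 41328 CPM, against 21062 and 26632 in Cyp11b2-high cells), more red cell transcripts (1325 and 924 CPM, against 23.4 and 0), fewer UMIs per cell (medians of 16923.5 and 15719, against 21014.5 and 18965) and a lower mitochondrial share (medians of 5.22% and 4.85%, against 7.27% and 7.25%). Red cell transcripts had no order along Cyp11b1, at 219 and 201 CPM in cells low in both and 93.8 and 0.697 in intermediate cells. Of the Cyp11b1-high cells, 452 of 456 and 285 of 287 were under 1000 CPM of red cell genes. With cells at 1000 CPM or more of red cell genes left out (an alternative added after the data had been seen), each member's difference stayed on its side of the threshold, and the part of Malat1, depth and the mitochondrial share in the differences was not tested.

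Hsd3b6 and Hsd3b1 are neighbours on chromosome 3 (GRCm38, the mm10 build of the files), where Hsd3b6 occupies chr3:98805504-98814443 and Hsd3b1 chr3:98852194-98859794, both on the minus strand with 37750 bases between them. Star lies at chr8:25806555-25815982 and Cyp11a1 at chr9:58006411-58027023, both on the plus strand, and Cyp21a1 at chr17:34801348-34804561 on the minus strand. The 250 bases before the start of each neighbour are shown because these copies of 1 enzyme gene behaved differently from cell to cell. They are RefSeq windows on GRCm38.p6, chr3:98814444-98814693 for Hsd3b6 and chr3:98859795-98860044 for Hsd3b1, on the minus strand, written 5′ to 3′. Of 5 motifs searched, each window held 1 match, in capitals, to the GATA site (GATAA on either strand), which begins 30 bases before the Hsd3b6 start and lies on the other strand 134 bases before the Hsd3b1 start.
Hsd3b6: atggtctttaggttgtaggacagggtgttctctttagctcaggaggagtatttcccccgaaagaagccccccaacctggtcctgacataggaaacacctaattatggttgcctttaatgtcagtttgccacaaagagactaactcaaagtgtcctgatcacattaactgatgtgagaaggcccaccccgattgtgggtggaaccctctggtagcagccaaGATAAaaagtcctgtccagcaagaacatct
Hsd3b1: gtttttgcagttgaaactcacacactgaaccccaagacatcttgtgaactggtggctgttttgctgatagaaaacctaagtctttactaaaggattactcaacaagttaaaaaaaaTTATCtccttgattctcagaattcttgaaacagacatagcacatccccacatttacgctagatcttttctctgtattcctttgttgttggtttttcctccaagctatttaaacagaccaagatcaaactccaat
An alignment of the windows held 146 identical bases in 296 columns (49.3%). GATAA occurs in 22.6% of 32851 RefSeq windows of this length, so many unrelated windows hold it. The other motifs were the SF1 site CAAGGNCA (5.53% of windows), the half-site AGGTCA (14.0%), AAAGGTCA (1.34%), all on both strands, and TATAAA on the gene strand (7.59%). AGGTCA is contained in AAAGGTCA. RefSeq windows were matched for 3 of the 5 members, and those of Cyp11a1, which do not lie at the gene start given above, are not described.

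Star, Cyp11a1, Hsd3b1 and Cyp21a1 were abundant in every cortical group, and the groups differed in degree rather than in presence. The 4 genes did not share 1 pattern. Cyp11a1 and Hsd3b1 were highest in the Cyp11b1-high cells. Star was higher at the ends, meaning Cyp11b2-high and Cyp11b1-high cells, than in the low and intermediate groups. Cyp21a1 was highest in Cyp11b1-high cells and lowest in the cells low in both enzymes. Hsd3b6 was the scarce member. Its CPM went down from cells low in both through intermediate to Cyp11b1-high cells in both libraries, but the place of Cyp11b2-high cells differed between them. Of all 12250 genes tested by edgeR's quasi-likelihood test, 37% passed the threshold (Benjamini-Hochberg adjusted p under 0.05) between Cyp11b1-high and Cyp11b2-high cells, where 3 members were higher, 1 was lower and 1 did not pass. The members' median log2 difference was 0.35, beside 0.00 over all genes. These p-values rest on how far group differences varied between 2 libraries not known to come from separate animals. That spread was moderated toward the spread of all genes, with 14.2 prior against 3 residual degrees of freedom. The SEs share it, and can be narrower than a gene's own gap between libraries. For Hsd3b6 between the ends the SE was 0.13, with -0.03 and -0.90 in single libraries. The p-values also depend on the term for library: without it no member passed in any comparison (lowest edgeR adjusted p 0.154, for Hsd3b1).

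**Figure D1:**
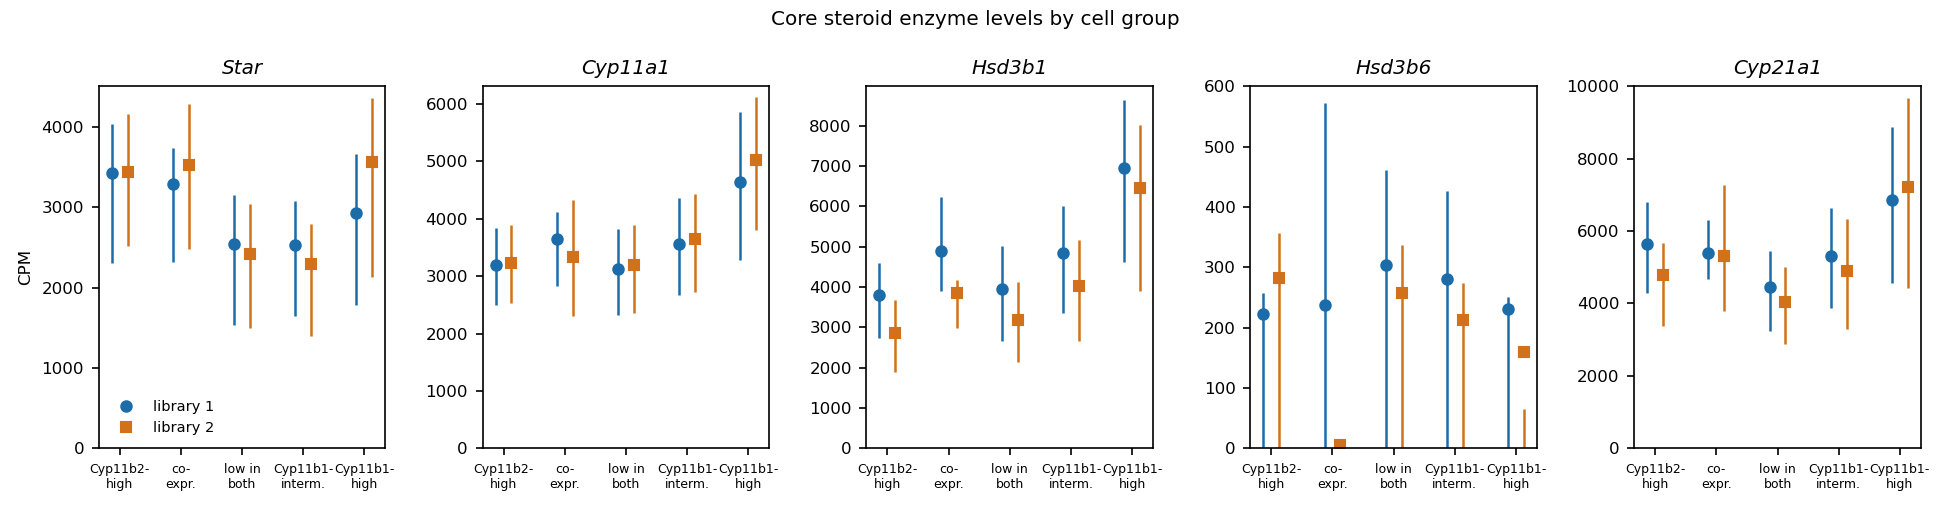
Level of each member in CPM (linear axes from 0) in the 5 cell groups, with points for the CPM of the group's summed UMIs in library 1 (circles) and library 2 (squares) and lines from the lower to the upper quartile of single cells. Hsd3b1 and Cyp11a1 stand highest in Cyp11b1-high cells, Star is high at both ends, and Hsd3b6 reaches at most 305 CPM.

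Star, the gate of cholesterol into the pathway, stood at 3426 CPM in library 1 and 3445 in library 2 in Cyp11b2-high cells. It was at 2540 and 2423 CPM in cells low in both enzymes, at 2529 and 2297 in Cyp11b1-intermediate cells, and at 2933 and 3569 in Cyp11b1-high cells. Star was thus high where either terminal enzyme was high, and the low and intermediate groups lay below the others in both libraries. It fell by 0.53 ± 0.08 (log2, moderated SE of the fit, 2 libraries) from Cyp11b2-high cells to cells low in both (edgeR, adjusted p = 2.65e-04), a comparison in which 15.3% of all genes passed. It fell by 0.60 ± 0.09 to the intermediate cells (edgeR, adjusted p = 6.81e-05; 19.3% of all genes passed) and rose by 0.44 ± 0.09 from intermediate to Cyp11b1-high cells (edgeR, adjusted p = 0.00186; 15.2% of all genes passed), with 0.19 in library 1 alone and 0.68 in library 2 alone. The ends did not pass against each other, with a difference of -0.17 and a 95% interval from -0.34 to 0.01 (edgeR, adjusted p = 0.139). That result is at the margin, since library 1 gave -0.31 and library 2 gave -0.03, and 3 alternatives, among them leaving out Aldh1a1-high cells (-0.21, edgeR adjusted p = 0.0475), took it past the threshold. The 22 and 10 co-expressing cells had 3291 and 3529 CPM of Star, near the Cyp11b2-high level.

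Cyp11a1, the side-chain cleavage enzyme that commits cholesterol to steroids, separated the Cyp11b1-high cells from the rest. It stood at 3196 and 3229 CPM in Cyp11b2-high cells, 3132 and 3190 in cells low in both, 3557 and 3643 in intermediate cells and 4645 and 5025 in Cyp11b1-high cells. In both libraries the Cyp11b1-high value was the highest and the low and Cyp11b2-high values were nearly equal. Cyp11a1 was higher by 0.50 ± 0.06 (log2) in Cyp11b1-high than in Cyp11b2-high cells (edgeR, adjusted p = 4.59e-06) and by 0.44 ± 0.06 than in intermediate cells (edgeR, adjusted p = 9.42e-05). Neither the low (-0.08, edgeR adjusted p = 0.423) nor the intermediate group (0.07, edgeR adjusted p = 0.50) differed from Cyp11b2-high cells past the threshold, with 95% intervals from -0.21 to 0.05 and from -0.06 to 0.20. Co-expressing cells had 3647 and 3339 CPM.

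Hsd3b1, the main 3β-hydroxysteroid dehydrogenase of these cells, showed the largest difference of the 5 members between the ends. It stood at 3805 and 2858 CPM in Cyp11b2-high cells, 3943 and 3181 in cells low in both, 4853 and 4015 in intermediate cells and 6960 and 6444 in Cyp11b1-high cells. Library 2 was lower than library 1 in every group, and the order of the groups was the same in both. Cyp11b1-high cells exceeded Cyp11b2-high cells by 0.94 ± 0.07 (log2; edgeR, adjusted p = 1.48e-08) and intermediate cells by 0.62 ± 0.07 (edgeR, adjusted p = 1.33e-05), and intermediate cells exceeded Cyp11b2-high cells by 0.32 ± 0.07 (edgeR, adjusted p = 0.00421). Cells low in both enzymes and Cyp11b2-high cells differed by 0.04 (95% interval -0.11 to 0.19; edgeR, adjusted p = 0.765). Co-expressing cells had 4888 and 3863 CPM, near the intermediate level.

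Hsd3b6, the second 3β-hydroxysteroid dehydrogenase and one reported as a zona glomerulosa enzyme, did not place Cyp11b2-high cells alike in the libraries. It stood at 223 and 283 CPM in Cyp11b2-high cells, 305 and 258 in cells low in both, 280 and 213 in intermediate cells and 231 and 160 in Cyp11b1-high cells. From cells low in both through intermediate to Cyp11b1-high cells the level went down in both libraries. On these CPM, library 1 placed the Cyp11b2-high cells lowest of these groups and library 2 placed them highest. After the TMM scaling of the fit, library 1 had 247 CPM in Cyp11b2-high and 241 in Cyp11b1-high cells, which were then lowest. The log2 differences between groups, single libraries included, rest on the scaled levels. The fit called Hsd3b6 lower in Cyp11b1-high than in Cyp11b2-high cells by 0.42 ± 0.13 (log2; edgeR, adjusted p = 0.0176). That call came from library 2, which alone gave -0.90, while library 1 gave -0.03. It was also lost with DESeq2 (-0.51, DESeq2 adjusted p = 0.138) and with cut-offs multiplied by 2 (-0.17, edgeR adjusted p = 0.481). Among the 10 co-expressing cells of library 2 a single Hsd3b6 UMI was found (5.76 CPM), against 238 CPM in the 22 of library 1.

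Each UMI of this 3′ assay stands for 1 captured transcript whatever its length, so the UMIs of the neighbours were set against each other. Hsd3b6 made up 5.53% (95% Clopper-Pearson interval 5.31 to 5.75, counting error only) of the pair's UMIs in Cyp11b2-high cells of library 1 and 9.01% (8.53 to 9.50) in library 2. Its share was 7.17% and 7.49% in cells low in both enzymes, 5.46% and 5.03% in intermediate cells and 3.21% and 2.42% in Cyp11b1-high cells. The Cyp11b1-high cells had the lowest share of these 4 groups in each library, and their Hsd3b1 level was the highest. Hsd3b1 thus made up nearly all of the pair's UMIs in every group, the Cyp11b2-high cells included. Hsd3b6 shares sequence with other genes where 3′ reads fall: of the 50-base stretches in the last 500 bases of the longest coding transcript, 35.0% of those of Hsd3b6 also occurred in Hsd3b2, Hsd3b3, Hsd3b4 or 2 gene models, and none in Hsd3b1. For Star, Cyp11a1, Hsd3b1 and Cyp21a1 the share was 0%. Of the genes that define the groups, Cyp11b2 had 19.1% of its stretches in Cyp11b1 as well, which touches the grouping and the co-expressing cells most directly. Cyp11b1 had 5.76% of its stretches in genes other than Cyp11b2. The sources used here do not say how reads matching several genes were counted, and the effect on Hsd3b6 and on the groups was not tested.

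Cyp21a1, which makes deoxycorticosterone in both zones, stood at 5637 and 4794 CPM in Cyp11b2-high cells, 4453 and 4053 in cells low in both, 5322 and 4903 in intermediate cells and 6863 and 7206 in Cyp11b1-high cells. The low group was the lowest and the Cyp11b1-high group the highest in both libraries. Cyp21a1 was higher by 0.35 ± 0.07 (log2) in Cyp11b1-high than in Cyp11b2-high cells (edgeR, adjusted p = 0.00115), with 0.20 in library 1 alone and 0.51 in library 2 alone, and by 0.48 ± 0.07 than in intermediate cells (edgeR, adjusted p = 2.47e-04). It was lower by a log2 difference of -0.35 ± 0.07 in cells low in both than in Cyp11b2-high cells (edgeR, adjusted p = 0.00306). The intermediate group did not pass against Cyp11b2-high cells (-0.12, 95% interval -0.28 to 0.03; edgeR, adjusted p = 0.289). Co-expressing cells had 5405 and 5314 CPM.

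Over the members, the step from intermediate to Cyp11b1-high cells was the most uniform: Star, Cyp11a1, Hsd3b1 and Cyp21a1 passed upward and Hsd3b6 did not pass (-0.34, edgeR adjusted p = 0.0933). Their median was 0.44 beside 0.00 over all genes, of which 15.2% passed in either direction. From Cyp11b2-high cells to cells low in both, none rose and Star and Cyp21a1 fell, beside 15.3% of all genes passing. From Cyp11b2-high to intermediate cells Hsd3b1 rose and Star fell, beside 19.3% of all genes passing. The comparisons share their reference cells, so these counts are not independent of each other.

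Finer bins of Cyp11b1, described here without a test, separated the members further. Among cells under 200 CPM of Cyp11b2, Cyp11a1 went from 3091 and 3134 CPM where no Cyp11b1 UMI was found to 6057 and 6369 CPM where Cyp11b1 was at 4000 CPM or more (23 and 53 cells), and each of the 6 steps was upward in both libraries. Cyp21a1 was also higher at every step, from 4386 and 3969 to 10695 and 9432 CPM. Star stayed between 2274 and 2582 CPM up to 1000 CPM of Cyp11b1, and was higher only beyond that, at 4455 and 4666 CPM. Hsd3b1 peaked earlier than the others, at 8055 and 7297 CPM in the bin from 2000 to under 4000 CPM, and stood at 7791 and 6320 in the last bin. The Hsd3b6 share of the pair went from 7.13% and 7.33% to 2.00% and 1.75% over the same bins. Higher levels thus appeared at lower Cyp11b1 for Cyp11a1 and Cyp21a1 than for Star.

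**Figure D2:**
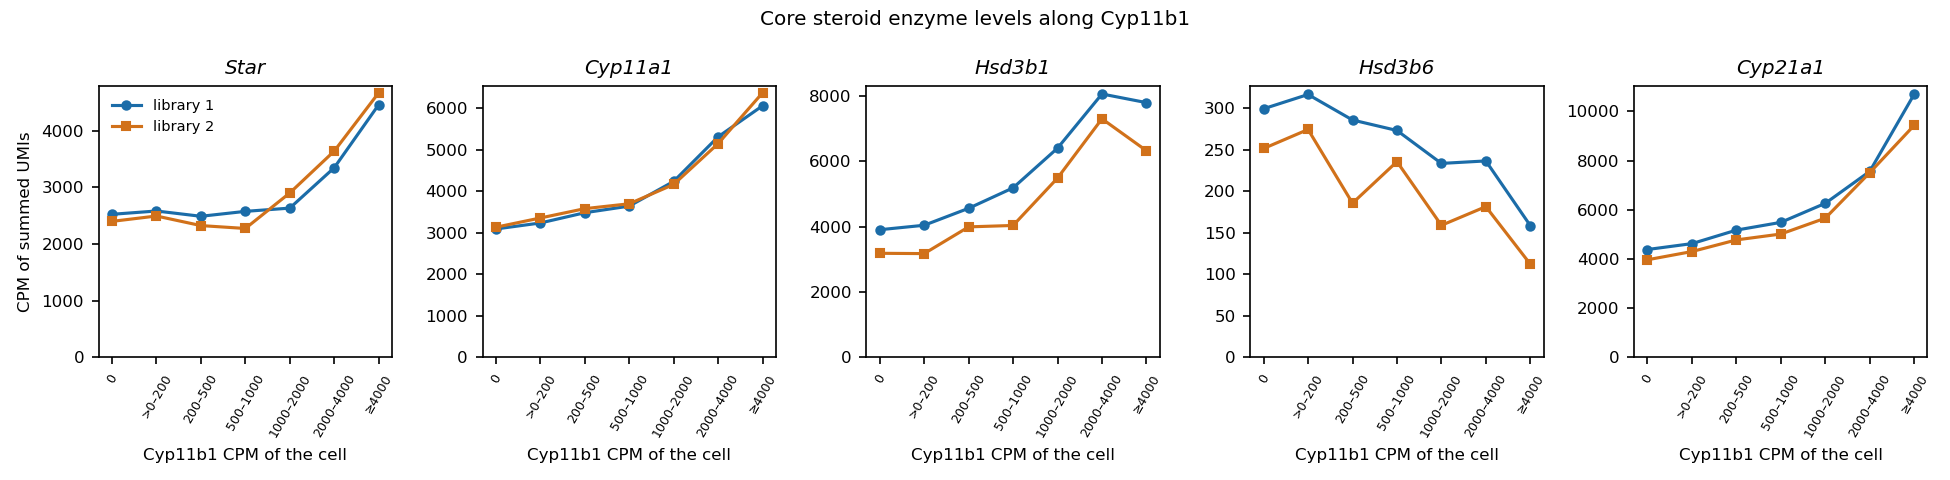
Member level (CPM of summed UMIs, linear axes from 0) in 7 bins of the cells' own Cyp11b1 CPM, for cells under 200 CPM of Cyp11b2, with circles for library 1 and squares for library 2. Cyp11a1 and Cyp21a1 are higher at each step, Star is level up to 1000 CPM of Cyp11b1, and Hsd3b1 peaks in the bin before the last.

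Along Cyp11b2, Star was higher in each successive bin in both libraries. Star went from 2379 and 2580 CPM in cells without a Cyp11b2 UMI to 3344 and 3360 at 200 to under 500 CPM, 3791 and 3589 at 500 to under 1000 CPM and 4338 and 4591 at 1000 CPM or more, the last bin holding only 6 and 7 cells. Cyp11a1 had no such order, at 3525 and 3830 CPM in cells without a UMI and 3460 and 3290 in the last bin. Hsd3b1 was lower in the last bin (3408 and 2735 CPM) than in the first (4781 and 4331). Cyp21a1 was higher in the last bin (6566 and 6779 CPM) than in the first (4977 and 5015), and Hsd3b6 was lower (29.5 and 149 against 293 and 204). Cells without a Cyp11b2 UMI include cells high in Cyp11b1.

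The Cyp11b1-high group held a minority with Aldh1a1, a retinaldehyde-oxidising enzyme, at 200 CPM or more: 27 of 456 cells in library 1 and 29 of 287 in library 2. Cyp21a1 was at 3012 and 2004 CPM in these cells, against 7137 and 7832 in the other Cyp11b1-high cells. Of them 51.9% and 65.5% had under 1000 CPM of Cyp21a1, compared with 1.86% and 1.94% of the others. Their other members were not low: Hsd3b1 stood at 10302 and 10103 CPM against 6722 and 6004, Cyp11a1 at 5675 and 5833 against 4571 and 4928, and Star at 3916 and 4716 against 2863 and 3431. Without Aldh1a1-high cells the Cyp21a1 difference between Cyp11b1-high and Cyp11b2-high cells was 0.44 in place of 0.35 (log2; edgeR, adjusted p = 1.96e-04).

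Over all grouped cells of each library, the members varied from cell to cell beyond counting error, and Hsd3b6 did so in another manner than the rest. With every cell thinned to 5000 UMIs, Star, Cyp11a1, Hsd3b1 and Cyp21a1 were missing from at most 0.934% of cells in either library. The part of their coefficient of variation beyond Poisson counting error was 0.49 and 0.52 for Star, 0.38 and 0.42 for Cyp11a1, 0.55 and 0.59 for Hsd3b1 and 0.46 and 0.55 for Cyp21a1. For Hsd3b6 it was 1.65 and 1.91. Being taken over all grouped cells, these values include the differences between groups. Within the 4 larger groups of both libraries this part ran from 0.38 to 0.54 for Star and from 0.25 to 0.40 for Cyp11a1. It ran from 0.42 to 0.52 for Hsd3b1, from 0.38 to 0.55 for Cyp21a1 and from 1.58 to 2.36 for Hsd3b6. Hsd3b6 had no UMI in 63.3% (95% Clopper-Pearson interval 61.9 to 64.8) of cells in library 1 and 68.9% (66.5 to 71.1) in library 2, although its means of 1.39 and 1.23 UMIs would leave 24.8% and 29.3% of cells empty under Poisson counting. More cells were empty, and more held many UMIs, than a Poisson distribution of the same mean gives.

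**Figure D3:**
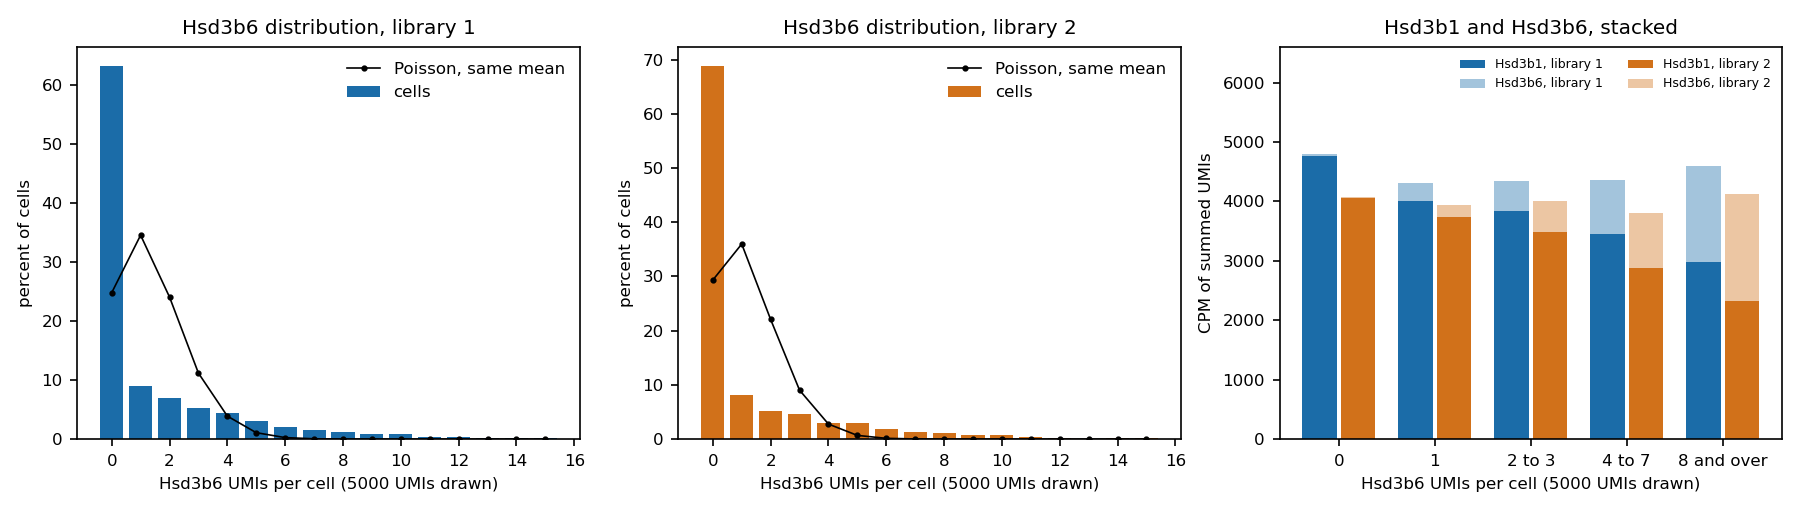
Left and middle, percent of cells with each number of Hsd3b6 UMIs after drawing 5000 UMIs per cell in library 1 and library 2 (bars), with a Poisson distribution of the same mean (black line); right, CPM of Hsd3b1 (full colour) and Hsd3b6 (pale, stacked on top) in cells grouped by that number. The bars at 0 stand at 63.3% and 68.9%, against 24.8% and 29.3% for the Poisson line, and Hsd3b1 goes down as Hsd3b6 goes up.

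Cells with at least 2 thinned Hsd3b6 UMIs, called Hsd3b6-on here, made up 27.7% of library 1 and 23.0% of library 2. They were found in all 4 larger groups, as 21.6% and 27.4% of Cyp11b2-high cells, 29.5% and 24.5% of cells low in both, 27.7% and 22.7% of intermediate cells and 23.0% and 16.03% of Cyp11b1-high cells. Their Hsd3b6 level, which the choice of at least 2 UMIs bounds from below, ran from 785 to 918 CPM in these groups. Cells with no thinned UMI had 25.01 and 14.7 CPM of Hsd3b6 beside 4769 and 4053 CPM of Hsd3b1. Cells with 1 thinned UMI were put in neither class. At full depth 45.9% of library 1 cells had an Hsd3b6 UMI (median 18626.5 UMIs). Thinned to 1000 UMIs the share was 18.1%, against 1.27% of leukocytes thinned alike, whose full-depth share was 3.80% at a median of 4469 UMIs.

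Hsd3b1 was lower in Hsd3b6-on cells. Its level went down in order from 4769 CPM in cells with no Hsd3b6 UMI through 4007, 3834 and 3450 (1, 2 to 3 and 4 to 7 UMIs) to 2975 CPM in cells with 8 or more in library 1, and from 4053 through 3736, 3492 and 2873 to 2323 CPM in library 2. On cells and cells without Hsd3b6 had similar depths, with medians of 18912 against 18455 UMIs and 16522.5 against 16010. Within each of the 4 larger groups and each library, Hsd3b1 was lower in on cells, in 8 of 8 comparisons that come from 2 libraries. The log2 difference ran from -0.47 to -0.29 in library 1 (mean -0.38) and from -0.39 to -0.16 in library 2 (mean -0.29). These values restate the inverse relation of the neighbours by classes of cells, which were formed after the data had been seen, and they carry no test. For the other members the means over the groups were 0.02 and -0.05 for Star, -0.01 and 0.02 for Cyp11a1 and -0.07 and -0.07 for Cyp21a1. The sum of the pair had no common direction. In library 2 it was higher in on cells in 4 of 4 groups, by little (3132 against 3296 CPM in Cyp11b2-high, 3389 against 3517 in low, 4216 against 4347 in intermediate and 6536 against 6743 in Cyp11b1-high cells). In library 1 it was higher only in Cyp11b2-high cells (3994 against 4101 CPM) and lower in the other 3 groups, most in Cyp11b1-high cells (7646 against 6364).

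**Figure D4:**
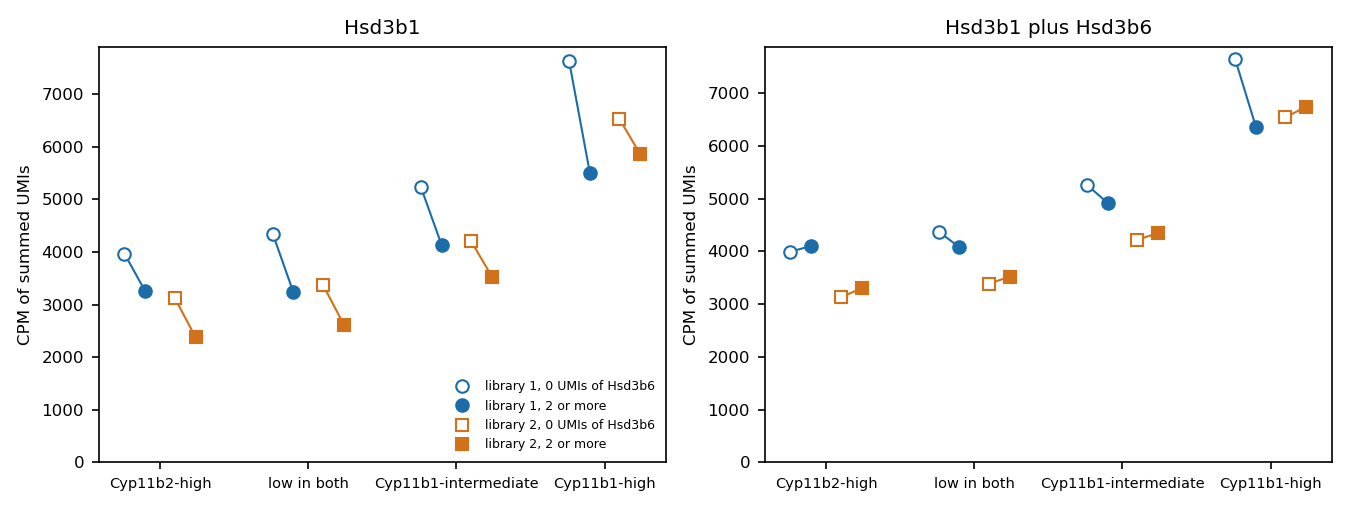
Hsd3b1 (left) and the sum of Hsd3b1 and Hsd3b6 (right), in CPM of summed UMIs on linear axes from 0, in cells with 0 Hsd3b6 UMIs (open) and with 2 or more (filled) after drawing 5000 UMIs, joined within each of 4 groups and each library. Hsd3b1 is lower in the filled points in 8 of 8 pairs, while the sum goes up in some pairs and down in others.

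Correlations across cells, taken on log2(thinned UMIs + 1) after centring within each library and group, describe which members varied together. They share each cell's total of 5000 UMIs and are lowered by counting error. Over 4370 and 1606 cells, Cyp11a1 with Cyp21a1 gave Pearson's r of 0.27 and 0.32, Hsd3b1 with Cyp21a1 0.26 and 0.30, and Cyp11a1 with Hsd3b1 0.14 and 0.34. With counting noise subtracted, Cyp11a1 with Cyp21a1 stood at 0.36 and 0.41. Pooled over the groups, these 3 enzymes thus varied together. In Cyp11b2-high cells of library 1, however, Hsd3b1 gave -0.03 with Cyp11a1 and 0.09 with Cyp21a1, while Cyp11a1 with Cyp21a1 gave 0.19. Star was nearly apart from the 3 enzymes in the pooled values. Its r was 0.04 and 0.08 to Cyp11a1, -0.02 and 0.04 to Hsd3b1, and 0.11 in both libraries to Cyp21a1. The Star to Cyp11a1 value was 0.21 and 0.20 within Cyp11b1-high cells and between -0.05 and 0.08 in the other 3 larger groups. Hsd3b6 had pooled values near 0 with Star, Cyp11a1 and Cyp21a1, from -0.03 to 0.02, and was inverse to Hsd3b1, at -0.25 and -0.16. In Cyp11b1-high cells of library 2 the last value was -0.03, against -0.28 in library 1.

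**Figure D5:**
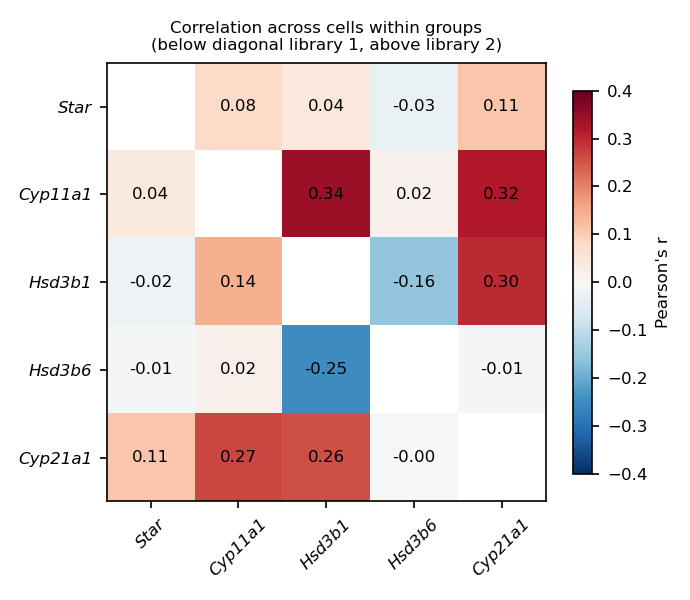
Pearson's r across cells for each pair of members after centring within library and group, below the diagonal for library 1 (4370 cells) and above it for library 2 (1606 cells), on a colour scale from -0.4 to 0.4. Cyp11a1, Hsd3b1 and Cyp21a1 are positive with each other, Hsd3b1 and Hsd3b6 are negative, and Star is near 0 with most.

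Among the 3285 genes at 50 CPM or more in each library, the 5 whose cell-to-cell pattern was most like each member were ranked by the lower of the libraries' r. For Star they were Fdx1 (0.35 and 0.31), the clock output factor Dbp (0.23 and 0.26), the lipoprotein receptor Scarb1 (0.19 and 0.22), the haem synthesis enzyme Alas1 (0.18 and 0.21) and the eGFP reporter (0.17 and 0.17). Cyp21a1 came 26th and Cyp11a1 210th in the Star list. For Cyp11a1 they were Cyp21a1, Fdxr (0.25 and 0.28), Tmem176b (0.24 and 0.28), Mgarp (0.24 and 0.24) and the mitochondrial chaperonin Hspe1 (0.23 and 0.22). For Hsd3b1 they were Cyp21a1, the potassium channel Kcnk3 (0.25 and 0.27), Prss35 (0.19 and 0.19), the desaturase Scd2 (0.17 and 0.19) and Rtn4rl1 (0.17 and 0.17). For Cyp21a1 they were Kcnk3, Cyp11a1, Hsd3b1, Hspe1 (0.25 and 0.30) and its partner Hspd1 (0.24 and 0.26). For Hsd3b6 the values were far smaller: Hmgb3 led with 0.07 in both libraries, before Vsnl1, Oxr1 and Slc12a2, and Hsd3b1 came last of the 3284 other genes. Fdx1 and Fdxr went with other members as well: in Cyp11b1-high cells Fdx1 gave 0.20 and 0.33 with Cyp11a1, and Fdxr gave 0.26 and 0.39 with Cyp21a1. At the other end, and noted after the values were seen, the microtubule regulator Stmn1 was the most negative gene for Star (-0.21 and -0.22), Cyp11a1 (-0.21 and -0.22), Hsd3b1 (-0.23 and -0.32) and Cyp21a1 (-0.24 and -0.26). In cells low in both enzymes, where Stmn1 itself was highest at 134 and 147 CPM, these values ran from -0.25 to -0.40. They ran from -0.25 to -0.07 in intermediate and from -0.27 to -0.04 in Cyp11b1-high cells. In Cyp11b2-high cells, with 31.6 and 10.3 CPM of Stmn1, they ran from -0.13 to 0.07 and had no common sign.

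Star with Fdx1 held within each of the 4 larger groups, at 0.25 to 0.37 in library 1 and 0.16 to 0.43 in library 2. Between the ends Fdx1 differed far more than Star. Fdx1 stood at 6424 and 7858 CPM in Cyp11b2-high cells and 2130 and 1850 in Cyp11b1-high cells, a log2 difference of -1.94 ± 0.12 (edgeR, adjusted p = 7.66e-10), where Star did not pass (-0.17). From Cyp11b2-high cells to low and intermediate cells both genes fell past the threshold, Fdx1 with -1.50 and -1.80 and Star with -0.53 and -0.60. From intermediate to Cyp11b1-high cells Star rose (0.44) and Fdx1 did not pass (-0.15). Kcnk3 with Cyp21a1 was strongest in Cyp11b1-high cells, at 0.47 and 0.52, against 0.13 and 0.12 in Cyp11b2-high cells. It was at 0.25 and 0.28 in cells low in both and 0.21 and 0.45 in intermediate cells. Kcnk3 with Hsd3b1 was at 0.14 and 0.005 in Cyp11b1-high cells, and from 0.15 to 0.44 in the other larger groups.

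The other genes of the pathway, taken from lists named for their role, moved in both directions between Cyp11b2-high and Cyp11b1-high cells. Of 6 electron partners, 1 was higher and 2 were lower in Cyp11b1-high cells, a share near the 37% of all genes that passed in this comparison (median 0.00 log2 over all genes, -0.03 over the list). H6pd, which supplies NADPH in the endoplasmic reticulum, was higher by 1.59 ± 0.15 (edgeR, adjusted p = 2.12e-07), from 7.05 and 7.57 to 21.0 and 27.2 CPM. Por, the electron donor of microsomal P450s such as Cyp21a1, was lower by a log2 difference of -0.71 ± 0.06 (edgeR, adjusted p = 7.51e-08), from 210 and 179 to 138 and 113 CPM. Cyp21a1 and Por thus differed in opposite directions, as did Cyp11a1 and Fdx1.

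Of 12 genes of cholesterol supply, 2 were higher and 7 lower in Cyp11b1-high cells (median -0.28), beside 37% of all genes called in either direction. The lower ones included the sterol carrier Stard4 (-1.29 ± 0.17, from 23.7 and 38.1 to 12.8 and 11.9 CPM; edgeR, adjusted p = 9.73e-06) and the cholesterol transporter Npc1 (-0.80 ± 0.11; edgeR, adjusted p = 1.12e-05). The higher ones were the mitochondrial membrane protein Tspo (0.22 ± 0.06; edgeR, adjusted p = 0.00512) and the acyl-CoA ligase Acsl4 (0.17 ± 0.06; edgeR, adjusted p = 0.0304). Of 13 regulators 12 could be tested, and 4 were higher and 4 lower (median 0.14), beside the same 37%. The protein kinase A subunit Prkaca (0.43 ± 0.09; edgeR, adjusted p = 9.65e-04) and Gata6 (0.37 ± 0.07; edgeR, adjusted p = 3.57e-04) rose most, and Crem (-1.70 ± 0.12; edgeR, adjusted p = 4.54e-09) and Creb1 (-0.52 ± 0.11; edgeR, adjusted p = 0.00119) fell most. Of 11 other steroid enzymes 3 passed the low-count filter, and 2 of these were higher. Srd5a2, a steroid 5α-reductase, had no UMI in Cyp11b2-high cells and 49.7 and 77.9 CPM in Cyp11b1-high cells, at least 294-fold higher against a floor of 3 UMIs over the group. Srd5a1 was higher by 0.76 ± 0.14 (edgeR, adjusted p = 3.52e-04). The untested enzymes included Cyp17a1, absent from the adult mouse cortex, with 4 UMIs in all sums, and the further family members Hsd3b2 with 4, Hsd3b7 with 52 and Hsd3b3, Hsd3b4 and Hsd3b5 with 0.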

How the data were processed

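Counts were UMIs per gene and cell barcode, deposited by the authors as matrices made with Cell Ranger (per the file headers, version 3.1.0) on mm10 (per the submitters' processing notes). The sources used here do not describe cell calling. Barcodes under 1000 UMIs, under 500 genes or above 30% mitochondrial UMIs were dropped (148 and 276). Scrublet (scanpy 1.11.5) scores then removed 197 and 37 at 0.8% per 1000 barcodes, so doublets of like cells may remain. Cells with summed markers of leukocytes (500 CPM), endothelium or stroma (1000 CPM) or chromaffin cells (5000 CPM) were left out (96, 1, 0 and 0 in library 1, 77, 0, 2 and 0 in library 2), then 228 and 290 under 5000 UMIs. Free RNA was not subtracted.

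UMIs were summed per group and library and fitted with edgeR 4.0.16 (R 4.3.3, TMM, terms for group and library) over 8 sums, with 3 residual and 14.2 prior degrees of freedom. Groups of 1 library come from the same sample, which is the source of the pairing. Groups with under 20 cells in a library were not tested. Alternatives are given in the closing section, and the model was checked on simulated data. A fit of Hsd3b6-on against Hsd3b6-zero cells was set aside, since its sums shared 2 libraries and its classes followed from a relation already seen. Sequences came from RefSeq (GRCm38.p6) and positions from GENCODE vM21. Named genes were the members, the pathway lists and the 5 most similar genes per member. Some genes under this rule are not reported here. Members and lists were chosen with earlier results of these data known.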

Additional observations from a re-analysis of the deposited data

How the results depend on the processing

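Across the alternatives that leave both libraries in, 241 of the members' differences kept their direction and side of the threshold. Those under RLE size factors, at least 10000 UMIs, at most 15% mitochondrial UMIs, doublets kept, thinned sums and no red-cell-rich cells all did. Those under library sizes without mitochondrial genes and members did too and are among the 241. TMM was computed after that change and offsets it, so this alternative could hardly move a value and says nothing on robustness. Without the replicate block (the term for library) every called difference lost its call: between Cyp11b1-high and Cyp11b2-high cells Cyp11a1 stood at 0.50, Hsd3b1 at 0.91, Hsd3b6 at -0.43 and Cyp21a1 at 0.34, from Cyp11b2-high cells to cells low in both Star at -0.52 and Cyp21a1 at -0.35, to intermediate cells Star at -0.60 and Hsd3b1 at 0.32, and from intermediate to Cyp11b1-high cells Star at 0.43, Cyp11a1 at 0.43, Hsd3b1 at 0.60 and Cyp21a1 at 0.46, with 1086, 1, 78 and 35 genes called in the 4 comparisons in place of 4535, 1880, 2368 and 1862. Thinned sums called 2486, 939, 1130 and 799 genes. DESeq2 called 871 and 1451 from Cyp11b2-high cells to low and intermediate cells and 959 from intermediate to Cyp11b1-high cells, where cut-offs multiplied by 0.5 gave 1156. Star between the ends passed with no low-count filter (-0.17), cut-offs multiplied by 0.5 (-0.22) and no Aldh1a1-high cells (-0.21). Hsd3b6 between the ends did not pass with cut-offs multiplied by 2 (-0.17) or DESeq2 (-0.51), reversed from Cyp11b2-high to intermediate cells with cut-offs multiplied by 2 (0.0625), and passed from intermediate to Cyp11b1-high cells with no filter (-0.35). The cause of these changes was not tested. The mean Hsd3b6 share moved from 2.39% to 9.55% in co-expressing and from 5.24% to 5.83% in intermediate cells with cut-offs multiplied by 0.5, and to 4.17% in the latter with cut-offs multiplied by 2. The median correlation over the 10 pairs was 0.060 and 0.0286 without replicate 1 and 2. Under Spearman, noise subtraction, no thinning, doublets kept and thinning without mitochondrial genes and other members, 38 correlations stayed within the spread between libraries and 17 did not. Hsd3b1 with Hsd3b6 stayed between -0.19 and -0.23, and Star with Hsd3b1 stood at -0.038 under Spearman. Hsd3b1 in Hsd3b6-on against Hsd3b6-zero cells stood at -0.34 with doublets kept, -0.36 at 10000 UMIs, and -0.29 and -0.38 in single libraries. The called differences between cell groups kept their sign in each single library, where no test was run. The planned comparisons of co-expressing cells were not run, as library 2 held 10 such cells, and their members' levels are limited by that depth.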

Other observations

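The eGFP reporter ranked among the 5 genes most positively correlated with Star across cells (r of 0.17 in both libraries) and among the 5 most negatively correlated with Hsd3b1 (-0.18 and -0.24).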
